A study of Arabidopsis thaliana with 45 samples.

Results

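The 8 genes described here encode root hair wall proteins of Arabidopsis: the expansins EXPA7 (AT1G12560) and EXPA18 (AT1G62980), the proline-rich proteins PRP1 (AT1G54970) and PRP3 (AT3G62680), the COBRA-like protein COBL9 (AT5G49270, SHV2 in RefSeq), the leucine-rich repeat extensins LRX1 (AT1G12040) and LRX2 (AT1G62440), and the fasciclin-like arabinogalactan protein FLA6 (AT2G20520). They were chosen by name and locus, with earlier results of these data known, out of 28545 genes in the count tables. All 8 had reads in every root library. The experiment asked how seedlings housed in Kennedy Fixation Tubes (KFTs), sealable tubes that hold a growth coupon and a chamber of fixative, behave along a simulated suborbital flight. It holds 45 RNA-seq libraries in 15 groups of 3, 30 from roots and 15 from leaves, each a pool of 2 wild-type Col-0 seedlings, 7 days old, grown under a 24 h light cycle with dark storage for 8 h.

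The KFT roots Q1A, Q1B, Q1C and Q1D came from 4 separate KFTs after 4 h, and the Q1P roots came from 1 Petri plate without a KFT. The clinostat groups, CR in roots and CL in leaves, spent 4 h and 14 min in a KFT and then 4 min on a clinostat at 1 rpm. Quiescent plants, which were not rotated, were fixed after 4 h (Q1R, Q1L), 4 h 14 min (Q2R, Q2L), 4 h 18 min (Q3R, Q3L) and 4 h 28 min (Q4R, Q4L). These times follow the sample labels, and the study's methods give a slightly shorter rest before Q1. A clinostat turns plants slowly so that the direction of gravity keeps changing, and stands in here for the weightless phase. The 3 libraries of a KFT group shared 1 KFT and the 3 of Q1P shared 1 plate, so the vessel and the treatment cannot be told apart, and a p-value measures only the spread between pools from the same vessel.

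Root hairs are tubular outgrowths of epidermal cells that lengthen at the tip, where new wall is laid down and kept extensible. Expansins loosen the bonds between wall polysaccharides. Proline-rich proteins and extensins are structural glycoproteins that become cross-linked in the wall, and LRX proteins carry in addition a leucine-rich repeat domain that binds signalling peptides. COBL9 is a surface protein with a lipid anchor, and plants that lack it or LRX1 form defective hairs. In Arabidopsis the bHLH factors RHD6 and RSL4 drive hair growth, and the root hair element (RHE) is the promoter motif through which such factors act on wall genes.

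The members lie on 4 chromosomes of TAIR10.1 (RefSeq): EXPA7 at chr1:4276505-4277969, EXPA18 at chr1:23331563-23333246, PRP1 at chr1:20504901-20506504, PRP3 at chr3:23182722-23184042, LRX1 at chr1:4069992-4072681, LRX2 at chr1:23112933-23115293 and FLA6 at chr2:8840557-8841565, all on the plus strand, and COBL9 at chr5:19971884-19974530 on the minus strand. LRX1, LRX2 and FLA6 have 1 exon. No 50-base word of a member's transcript occurred in the transcript of another gene, so reads could be assigned to them without a close copy. EXPA7 overlaps AT1G12570 on the opposite strand, which had 0 to 0.652 CPM (counts over the library total, times 1000000) in roots and 0.261 to 7.34 CPM in leaves. EXPA18 overlaps AT1G62978, not analysed here.

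The promoters of PRP1 and FLA6, the members with the largest changes between root groups, and of PRP3 and EXPA7, which changed less, are shown because all 4 carry the RHE. Each line gives the 250 bases before the annotated start, 5′ to 3′ on the gene's strand, with matches to the RHE, here TG, then 4 bases of any kind (short form) or 5 (long form), then CACG, on either strand, in capitals.

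PRP1: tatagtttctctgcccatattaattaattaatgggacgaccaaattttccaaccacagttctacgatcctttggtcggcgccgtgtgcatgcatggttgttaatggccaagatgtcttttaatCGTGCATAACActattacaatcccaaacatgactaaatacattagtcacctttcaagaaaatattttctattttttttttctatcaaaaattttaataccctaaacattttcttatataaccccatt

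PRP3: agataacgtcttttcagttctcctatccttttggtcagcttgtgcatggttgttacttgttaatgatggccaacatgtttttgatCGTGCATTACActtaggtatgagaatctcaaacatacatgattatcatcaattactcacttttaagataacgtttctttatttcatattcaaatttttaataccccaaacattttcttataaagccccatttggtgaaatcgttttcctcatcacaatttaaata

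FLA6: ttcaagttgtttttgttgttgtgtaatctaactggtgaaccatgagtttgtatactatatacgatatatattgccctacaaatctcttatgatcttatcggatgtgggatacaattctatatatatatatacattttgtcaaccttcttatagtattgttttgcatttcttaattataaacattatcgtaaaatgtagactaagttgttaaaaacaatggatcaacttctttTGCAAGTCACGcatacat

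EXPA7: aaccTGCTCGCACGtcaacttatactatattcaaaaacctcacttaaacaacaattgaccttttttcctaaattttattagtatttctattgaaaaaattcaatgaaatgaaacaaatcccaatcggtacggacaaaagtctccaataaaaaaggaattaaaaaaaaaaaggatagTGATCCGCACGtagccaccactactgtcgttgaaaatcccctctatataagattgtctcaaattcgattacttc

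PRP1 is at chr1:20504651-20504900, PRP3 at chr3:23182472-23182721, FLA6 at chr2:8840307-8840556 and EXPA7 at chr1:4276255-4276504. The long form stood in the promoters of 5 members, EXPA7, PRP1, PRP3, COBL9 and FLA6, and in 5.29% of 27443 promoters of the same length. The short form stood in 4, EXPA7, EXPA18, COBL9 and LRX1, and in 4.06% of all promoters. Either form was found for 7 of the 8 members and for 9.02% of all promoters. The window of LRX2 held neither form. PRP1 and PRP3 carry the match on the minus strand, as TGTTATGCACG from 127 to 117 bases and TGTAATGCACG from 165 to 155 bases before the start. FLA6 carries TGCAAGTCACG from 18 to 8 bases before its start. A match describes the letters of the window, and binding was not measured. CACGTG, a core bHLH motif that can share its first bases with the end of either form, stood in 6.49% of all promoters and in 0 of the members' windows.

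Library totals ran from 29203427 to 117091661 counts (median 50467925). The 12 leaf markers, photosynthesis genes, summed to between 125.8 and 1032 CPM in root libraries and to 49640 CPM or more in every leaf library, so the tissue labels held. Roots and leaves were bulk tissue, in which fewer hair cells and less RNA per hair cell cannot be told apart. Q1A replicate 1, a root library, had the highest leaf marker sum (1032 CPM) and low levels of the members: each of the 8 was among the 5 lowest of 30 root libraries. Its part in the results is shown by the fits without it. CR replicate 1 was the deepest library and Q4L replicate 1 the shallowest. The labels of Q4L replicate 1 disagree, with Q3 in one field and Q4 in its title, which was followed.

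PRP3 was the most abundant of the 8 in roots and LRX2 the least. Per kilobase of exon and over the 30 root libraries, PRP3 averaged 195.8 ± 59.2 CPM, EXPA7 76.5 ± 15.1, EXPA18 59.0 ± 11.9, PRP1 51.9 ± 23.1, FLA6 31.0 ± 11.3, LRX1 26.8 ± 8.08, COBL9 18.2 ± 4.53 and LRX2 10.8 ± 3.15 (SD, n = 30). The order ran from PRP3 through the expansins to COBL9 and LRX2. Not scaled by length, the means were 239.1 CPM for PRP3, 85.5 for EXPA7, 73.8 for EXPA18, 72.0 for LRX1, 71.3 for PRP1, 41.2 for COBL9, 31.2 for FLA6 and 25.4 for LRX2. The highest root library exceeded the lowest 21.2-fold for PRP1 and 6.51-fold for FLA6, against 2.22-fold for EXPA18 and 2.61-fold for EXPA7. When the 10 root groups were ranked by mean, the ranges of neighbouring groups overlapped for all 8 genes, except that Q1P lay below every other root library for PRP1 and FLA6.

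**Figure D1:**
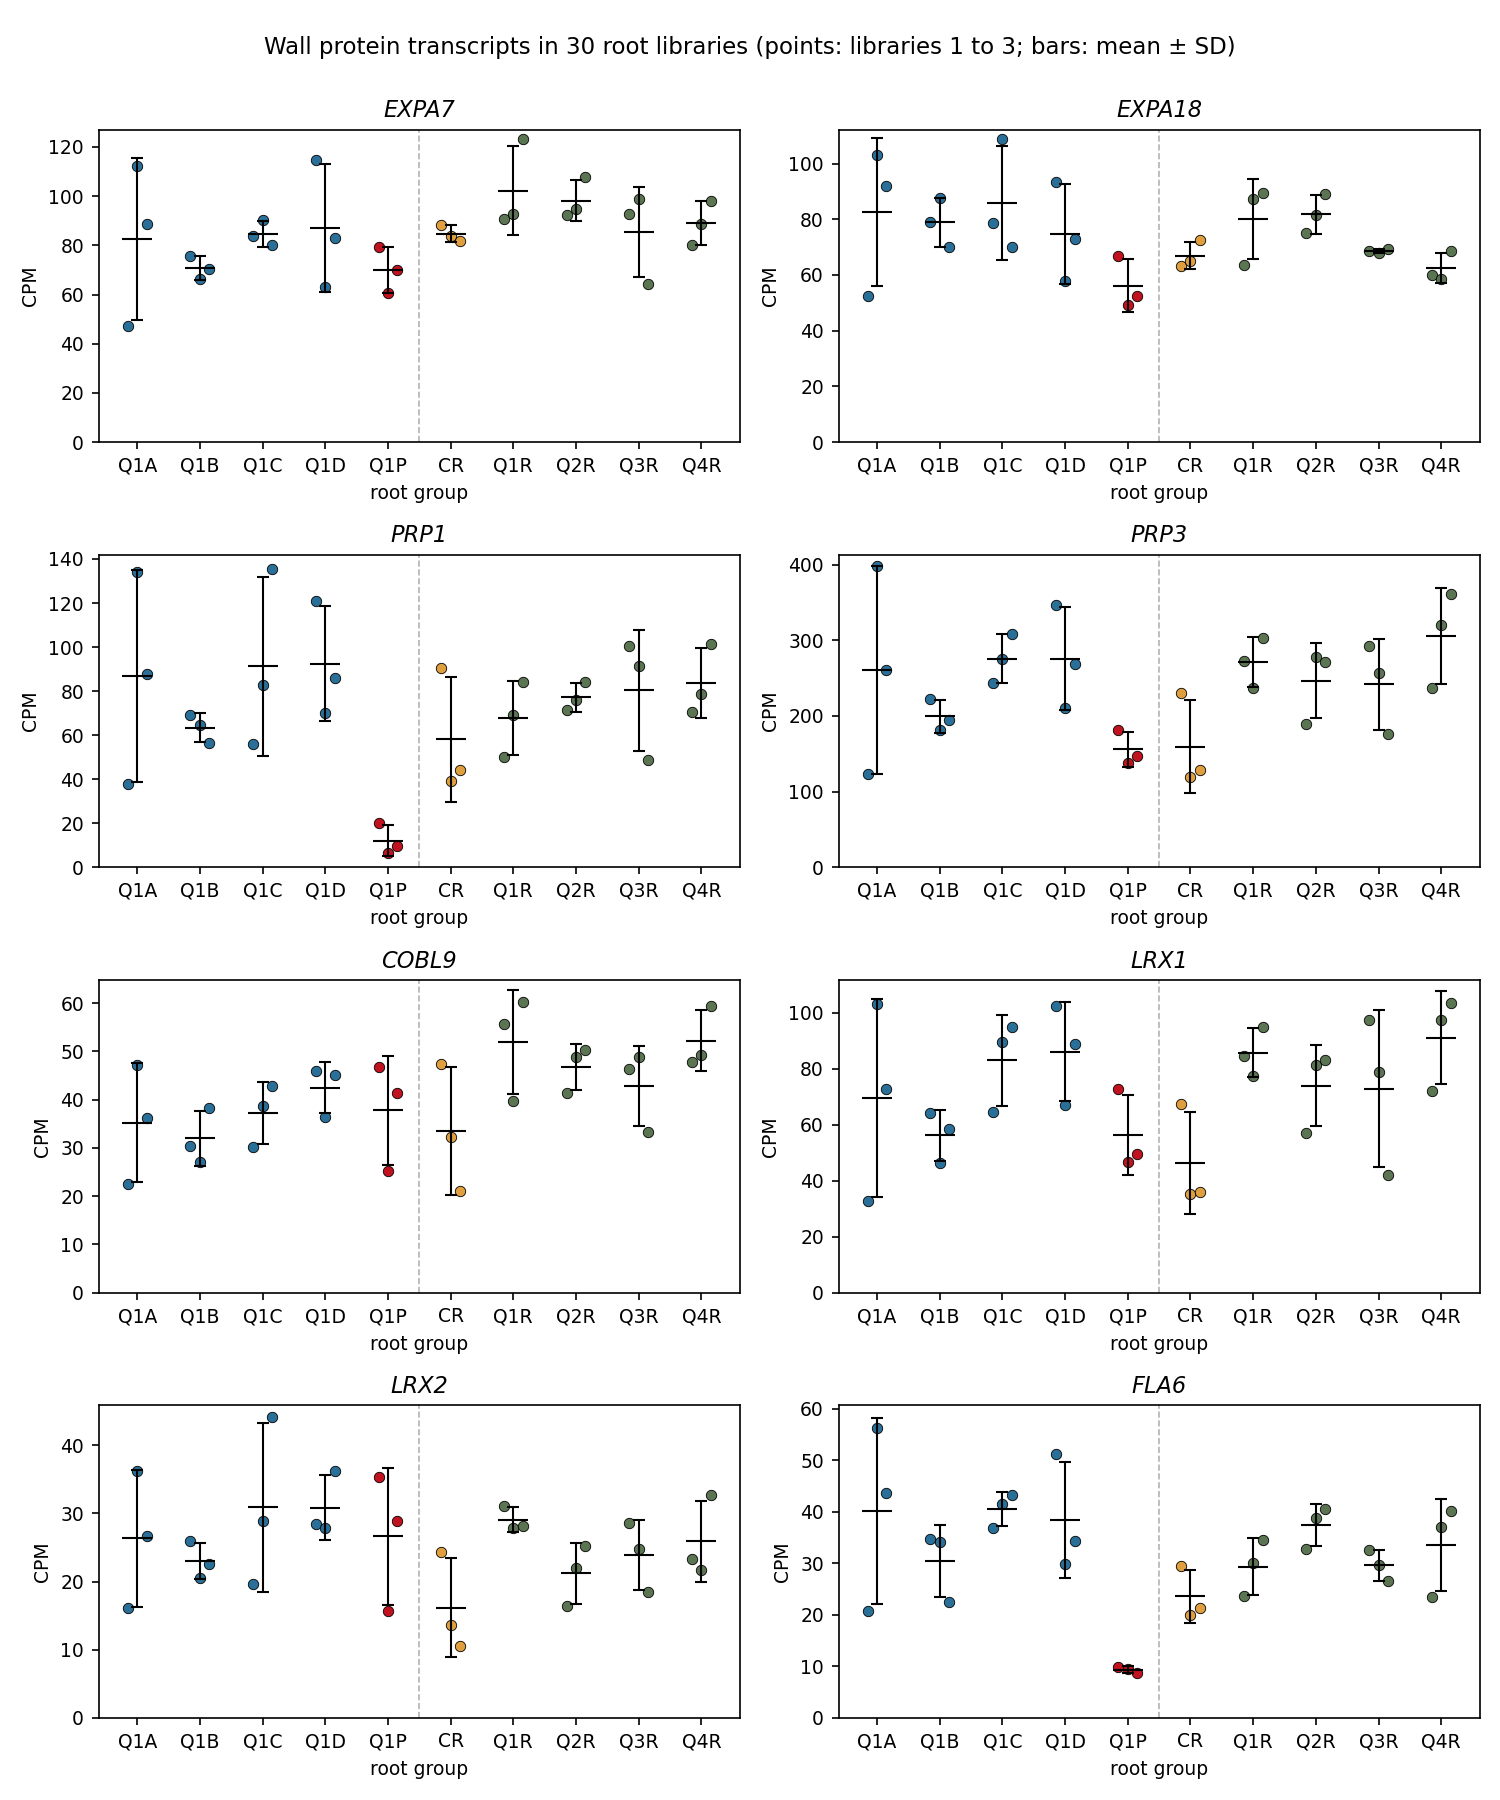
CPM (vertical axes) of each gene in 30 root libraries, by group (horizontal axes), with KFT groups Q1A to Q1D beside the Petri plate group Q1P, and clinostat roots (CR) beside Q1R to Q4R. Points are libraries and bars the mean ± SD (n = 3); PRP1 and FLA6 in Q1P (red) sit below all other points, and CR replicates 2 and 3 sit low for PRP3, LRX1 and LRX2.

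Roots in KFTs were compared with roots on a Petri plate to learn what housing in the tube does at rest. PRP1 and FLA6 were higher in KFT roots, 6.91-fold and 4.00-fold. PRP1 had 38.0, 134.2 and 87.8 CPM in Q1A, 69.2, 64.5 and 56.4 CPM in Q1B, 55.8, 82.6 and 135.4 CPM in Q1C, and 121.1, 70.0 and 86.1 CPM in Q1D, against 20.1, 6.40 and 9.83 CPM in Q1P. The lowest KFT library stood above the highest plate library, and Q1P replicate 1 was the highest of the 3 plate libraries. FLA6 had 20.7, 56.2 and 43.6 CPM in Q1A, 34.7, 34.2 and 22.4 CPM in Q1B, 36.9, 41.5 and 43.3 CPM in Q1C, and 51.1, 29.9 and 34.3 CPM in Q1D, against 9.87, 9.54 and 8.62 CPM in Q1P. The 3 plate libraries lay close together, and each KFT library stood above them.

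Over the 4 KFTs together against the plate, the log2 fold change was 2.79 ± 0.42 for PRP1 (adjusted p = 0.00236) and 2.00 ± 0.27 for FLA6 (adjusted p = 0.000726; SE, edgeR quasi-likelihood test, 12 against 3 libraries, adjusted over 21958 genes). These are 2 of the 8 members called at an adjusted p of at most 0.05, where 0.979% of all genes were called in either direction and 0.574% were higher. Every fit that left out 1 of the 15 libraries kept both calls, Q1A replicate 1 included. With counts summed per vessel, 4 KFTs stood against 1 plate (adjusted p = 0.0331 for PRP1 and 0.0338 for FLA6), but that spread comes from the KFTs alone and the plate was assumed to vary like them, so the fit does not show how far plates differ. The ranges of 1.06% of all genes lay wholly higher in the KFT libraries. Against the 27 other root libraries, the range of Q1P was wholly below for 0.241% of genes and for 2 members, PRP1 and FLA6.

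The other 6 members did not pass the test. PRP3 averaged 252.7 ± 75.0 CPM in KFT roots and 155.7 ± 23.2 CPM in plate roots (SD, n = 12 and 3), and its log2 fold change was 0.70 ± 0.26 (SE, edgeR, adjusted p = 0.331). EXPA18 averaged 80.5 ± 17.2 CPM in KFT roots and 56.2 ± 9.45 CPM in plate roots, with a log2 fold change of 0.52 ± 0.19 (adjusted p = 0.322). LRX1 (0.39 ± 0.27), EXPA7 (0.21 ± 0.20), LRX2 (0.06 ± 0.26) and COBL9 (-0.04 ± 0.20) gave the log2 fold changes shown, with adjusted p of 0.772 or more. The median over the 8 members was 0.45, beside 0.00031 over all genes tested. Within the proline-rich protein pair, PRP1 had 2.79 and PRP3 0.70, and this difference was not tested.

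Taken one KFT at a time, FLA6 was called in Q1B (log2 fold change 1.69, adjusted p = 0.0362), Q1C (2.11, adjusted p = 0.00308) and Q1D (2.06, adjusted p = 0.0162), and FLA6 had 2.09 in Q1A with an adjusted p of 0.112. PRP1 was called in Q1D (2.95, adjusted p = 0.0469), and had 2.83 in Q1A, 2.38 in Q1B and 2.90 in Q1C with adjusted p of 0.206, 0.124 and 0.171. Both genes had ranges apart from the plate in each of the 4 KFTs. In all, 2, 3, 5 and 3 members had ranges apart in Q1A, Q1B, Q1C and Q1D. The share of all genes with ranges apart was not counted for single KFTs, so these counts are no result about the members. Between KFTs treated alike, 4 members had ranges apart in Q1C against Q1B and 3 in Q1D against Q1B. It was 0 members in Q1D against Q1C and in Q1B, Q1C and Q1D against Q1A. The shares of all genes called were 0.0613% for Q1A, 0.0893% for Q1B, 0.0471% for Q1C and 0.17% for Q1D. Leaving out Q1A replicate 1 brought FLA6 in Q1A to 2.41 (adjusted p = 0.00599). Some of these calls depended on single libraries. FLA6 in Q1B was not called without Q1B replicate 2 (1.59, adjusted p = 0.177), Q1P replicate 1, Q1P replicate 2 or Q1P replicate 3. FLA6 in Q1D was not called without Q1D replicate 3 or Q1P replicate 3. PRP1 in Q1D was called in only 1 of the 6 fits that left out a library, that without Q1P replicate 1 (3.51, adjusted p = 0.00732), and without Q1P replicate 1 PRP1 was also called in Q1B (2.94, adjusted p = 0.0258). DESeq2 called PRP1 and FLA6 in each of the 4 KFTs, and PRP3 in Q1C (0.81) and Q1D (0.84), where it called 1.3% of all genes for Q1A, 1.65% for Q1B, 0.855% for Q1C and 1.44% for Q1D. The 4 comparisons share the plate libraries.

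Other root hair genes were read from lists beside the members, also chosen with earlier results of these data known. Of 30 root hair growth genes, 7 were higher in KFT roots and 0 lower, with a median log2 fold change of 0.57. XTH26, a xyloglucan endotransglucosylase/hydrolase gene that remodels wall xyloglucan, averaged 20.0 CPM in KFT roots and 0.993 CPM in plate roots (log2 fold change 4.33 ± 0.33, adjusted p = 2.24e-06). AT5G19890, a peroxidase gene, averaged 189.3 CPM in KFT roots and 10.7 CPM in plate roots (4.15 ± 0.36, adjusted p = 8.01e-06). The related XTH12 (1.91), XTH13 (1.65) and XTH14 (0.80), the extensin gene EXT12 (1.67) and the peroxidase gene RHS18 (1.04) made up the rest. XTH26 and AT5G19890 were also called in each of the 4 KFTs on its own.

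Of 8 root hair transcription factors, 1 was higher, the bHLH gene AT5G43175 with 4.14 CPM in KFT roots and 0.463 CPM in plate roots (3.15 ± 0.34, adjusted p = 9.99e-05). RSL4, a main driver of hair elongation, had 23.4 CPM in KFT roots and 13.8 CPM in plate roots and fell just short (0.76 ± 0.18, adjusted p = 0.0509). RHD6, which starts hair formation, had a log2 fold change of -0.39 and RSL2 of -0.74, and neither passed the test (adjusted p = 0.561 and 0.112). Over the 8 factors the median log2 fold change was -0.33, with 3 positive and 5 negative. Among 21 relatives of the members in the same protein families, 1 was called, AT3G22800, an LRX gene (0.90 ± 0.13), and the median was 0.06. The other 20, among them the proline-rich protein gene PRP4 (0.54) and the expansin gene EXPA1 (0.14), did not pass.

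Root genes listed for sites outside hairs were read in the same contrast. Whether they are also expressed in hair cells was not tested, so the list is not a control without hair cells. Of 15, 4 were lower in KFT roots: MRN1 (-1.71 ± 0.31) of the marneral pathway, and THAS1 (-0.89), CYP708A2 (-0.89) and CYP705A5 (-0.85) of the thalianol pathway. Of all 21958 genes tested, 89 were lower. The 15 summed to between 1065 and 2047 CPM in KFT libraries and between 1910 and 2664 CPM in plate libraries, with a median log2 fold change of -0.30. The 12 leaf markers had 0 calls and a median of -0.004, and summed to between 125.8 and 1032 CPM in KFT roots and between 153.0 and 543.5 CPM in plate roots. Whether the cell makeup of the roots differed was not tested.

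**Figure D2:**
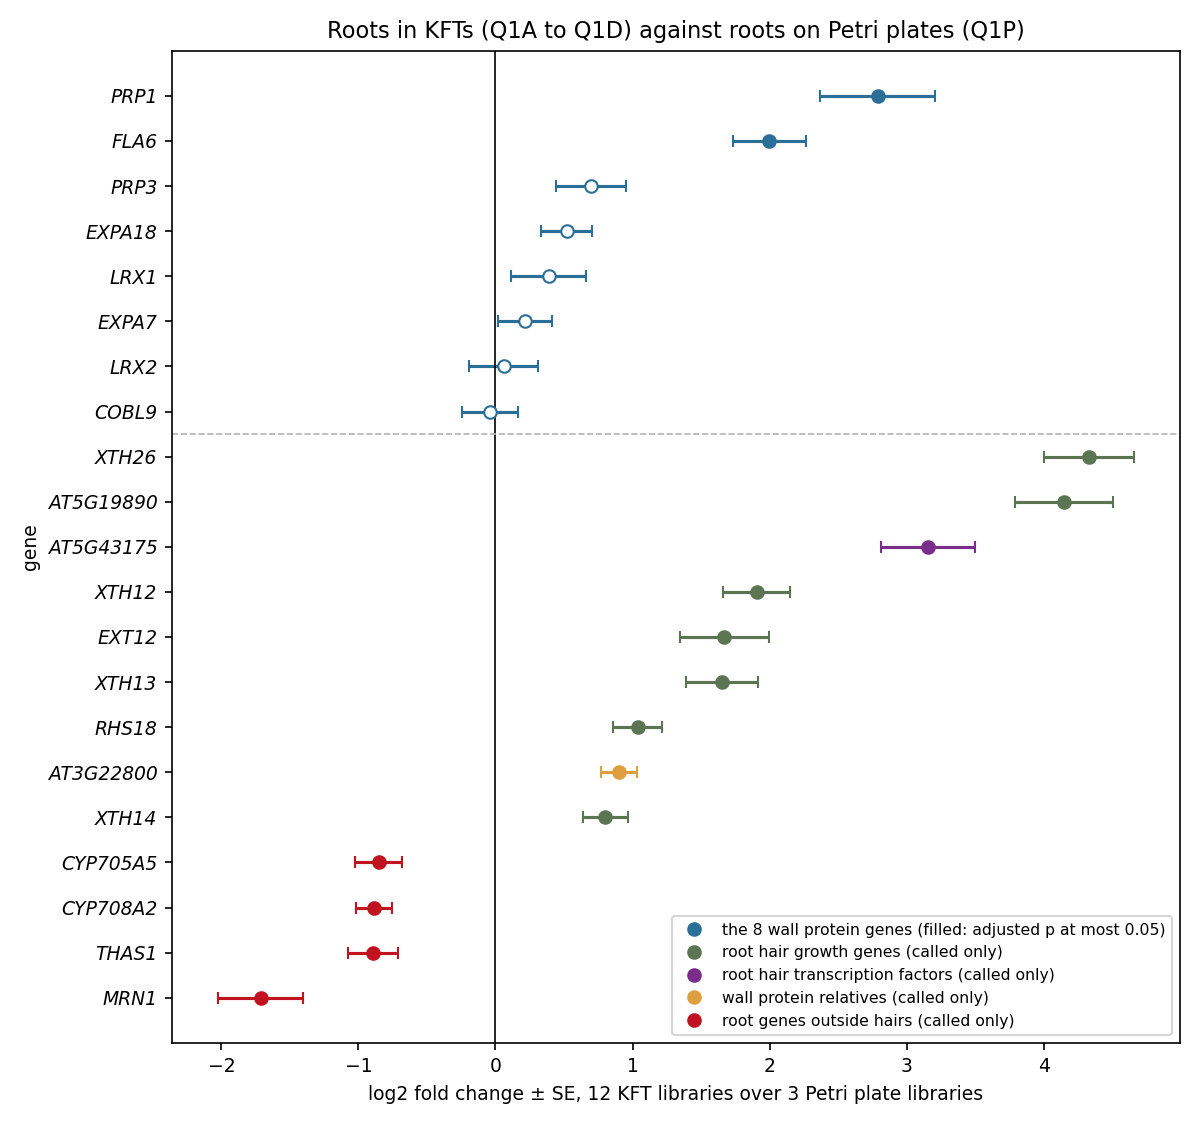
Log2 fold change ± SE (horizontal axis) of KFT roots (Q1A to Q1D, n = 12) over Petri plate roots (Q1P, n = 3) for the 8 genes above the dashed line, and below it the genes called in the other lists. Filled points passed an adjusted p of at most 0.05: PRP1 (2.79) and FLA6 (2.00) among the 8, while XTH26 (4.33) and AT5G19890 (4.15) reach furthest right and MRN1 (-1.71) furthest left.

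The 4 KFTs were also compared with each other to see whether tubes treated alike gave the same levels. In the 6 pairs, 0 of the 8 members were called, as were 0 of all genes (0%), while between 428 and 4004 genes had an unadjusted p below 0.05. Members had an unadjusted p below 0.05 in Q1C against Q1B (3 members, and 530 of 21162 genes) and Q1D against Q1B (5 members, and 4004 of 21263 genes). DESeq2 called LRX1 (0.63, adjusted p = 0.0138) and PRP1 (0.56, adjusted p = 0.0478) in Q1D against Q1B, where it called 5.98% of all genes. Log2 fold changes ran from -0.45 to -0.07 in Q1B against Q1A, from 0.12 to 0.56 in Q1C against Q1B and from -0.06 to 0.64 in Q1D against Q1B. Within Q1A the libraries lay far apart for all 8, from 123.1 CPM in replicate 1 to 397.9 CPM in replicate 2 for PRP3.

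The quiescent roots of the time course, Q1R, had been in a KFT as long as Q1A to Q1D but formed a separate set. Against the 12 libraries of Q1A to Q1D, 0 members were called in Q1R, where 28.9% of all genes were. COBL9 came nearest, with 55.7, 39.7 and 60.2 CPM in Q1R against 22.5 to 47.1 CPM in the KFT set (log2 fold change 0.46 ± 0.18, adjusted p = 0.0697), and passed without Q1R replicate 2 (0.62, adjusted p = 0.0378) or without Q1D replicate 1 (0.50, adjusted p = 0.0467). The ranges overlapped. PRP1 (-0.34) and FLA6 (-0.39) did not pass the test in Q1R either (adjusted p = 0.427 and 0.234), and the lowest Q1R library had 50.3 CPM of PRP1.

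Along the quiescent time course, none of the 8 passed the test in roots. Their log2 fold changes ran from -0.41 to 0.39 in Q2R against Q1R, from -0.22 to 0.30 in Q3R against Q1R and from -0.30 to 0.36 in Q4R against Q1R, with the lowest adjusted p at 0.36, 0.495 and 0.534. Of all genes, 0.363%, 4.54% and 0.913% were called in the same fits. An unadjusted p below 0.05 was seen for 2 members in Q2R, LRX2 (-0.41 ± 0.16) and FLA6 (0.39 ± 0.15), and for 0 in Q3R and Q4R. Among all genes it was seen for 2364 of 21189 in Q2R, 4473 of 20993 in Q3R and 2222 of 20912 in Q4R. DESeq2 called 0 members at each time. PRP3 illustrates the spread, with 272.7, 236.8 and 302.8 CPM in Q1R, 189.9, 278.4 and 271.6 CPM in Q2R, 292.6, 257.2 and 175.6 CPM in Q3R, and 236.8, 320.0 and 360.8 CPM in Q4R. The groups overlapped, and Q3R replicate 3 was the lowest of the 12. Of the 30 root hair growth genes 0 were called at any of the 3 times, and RSL2 was lower in Q3R (-0.68 ± 0.15, adjusted p = 0.0285).

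Clinorotation was compared with 4 sets of controls, since Q3R spent the same time in the KFT while Q1R was fixed before the rotation. All 8 members had negative log2 fold changes against each control. With the 3 clinostat libraries, 0 passed the main edgeR test, that of the groups alone with the filter on low counts. Against Q1R, LRX1 had -0.85 ± 0.22 (adjusted p = 0.0699), LRX2 -0.80 ± 0.25 (adjusted p = 0.119), PRP3 -0.73 ± 0.21 (adjusted p = 0.103) and COBL9 -0.59 ± 0.25 (adjusted p = 0.239). Against Q3R, the same 4 had -0.68 ± 0.30, -0.58 ± 0.27, -0.62 ± 0.25 and -0.37 ± 0.25, with adjusted p between 0.297 and 0.53. Against Q3R, EXPA7 (-0.03) and EXPA18 (-0.05) had the values nearest 0, and against Q1R it was PRP1 (-0.19).

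The clinostat libraries were split. LRX1 had 67.2, 35.3 and 36.0 CPM in CR, against 84.6, 77.3 and 94.8 CPM in Q1R and 97.3, 78.8 and 42.1 CPM in Q3R. LRX2 had 24.4, 13.6 and 10.54 CPM in CR, against 31.2, 27.8 and 28.2 CPM in Q1R and 28.6, 24.7 and 18.5 CPM in Q3R. PRP3 had 230.4, 119.8 and 128.1 CPM in CR, against 272.7, 236.8 and 302.8 CPM in Q1R and 292.6, 257.2 and 175.6 CPM in Q3R. In each case CR replicates 2 and 3 were low, and replicate 1 lay below the Q1R libraries but among those of Q3R. Against Q1R the ranges were apart for 4 members, EXPA7, PRP3, LRX1 and LRX2, and lay wholly lower for 12.7% of all genes.

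CR replicate 1 was the highest clinostat library for LRX1, LRX2, PRP3 and COBL9, so leaving it out enlarges their drop by construction. Members were called without CR replicate 1, and in no other fit that left out 1 library. Against Q1R, 4 members were then lower: LRX1 (-1.20 ± 0.13, adjusted p = 0.000567), PRP3 (-1.07 ± 0.12, adjusted p = 0.000645), LRX2 (-1.21 ± 0.18, adjusted p = 0.00261) and COBL9 (-0.90 ± 0.22, adjusted p = 0.0275), where 4.01% of all genes were lower. Against Q3R, 2 members were lower, PRP3 (-0.98 ± 0.19, adjusted p = 0.031) and LRX2 (-1.003 ± 0.22, adjusted p = 0.0391), where 1.5% of all genes were lower. Against Q1R and Q3R together 3 members were lower (0.555% of all genes), and against Q1R, Q2R and Q3R together 4 (1.47% of all genes). With the 3 clinostat libraries kept, the share of all genes called was 1.6% against Q1R and 0.00475% against Q3R. The 4 comparisons share the clinostat libraries, and the clinostat and the vessel that held them cannot be told apart. With the 3 clinostat libraries, DESeq2 called LRX1, LRX2 and PRP3 against Q1R (6.08% of all genes), PRP3 against Q1R with Q3R (1.46%), and LRX1 and PRP3 against Q1R, Q2R and Q3R (2.06%). Without the filter on low counts LRX1, LRX2 and PRP3 were called against Q1R (3.5%). Against the 2 pooled control sets the main test called 0% and 0.0409% of all genes.

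**Figure D3:**
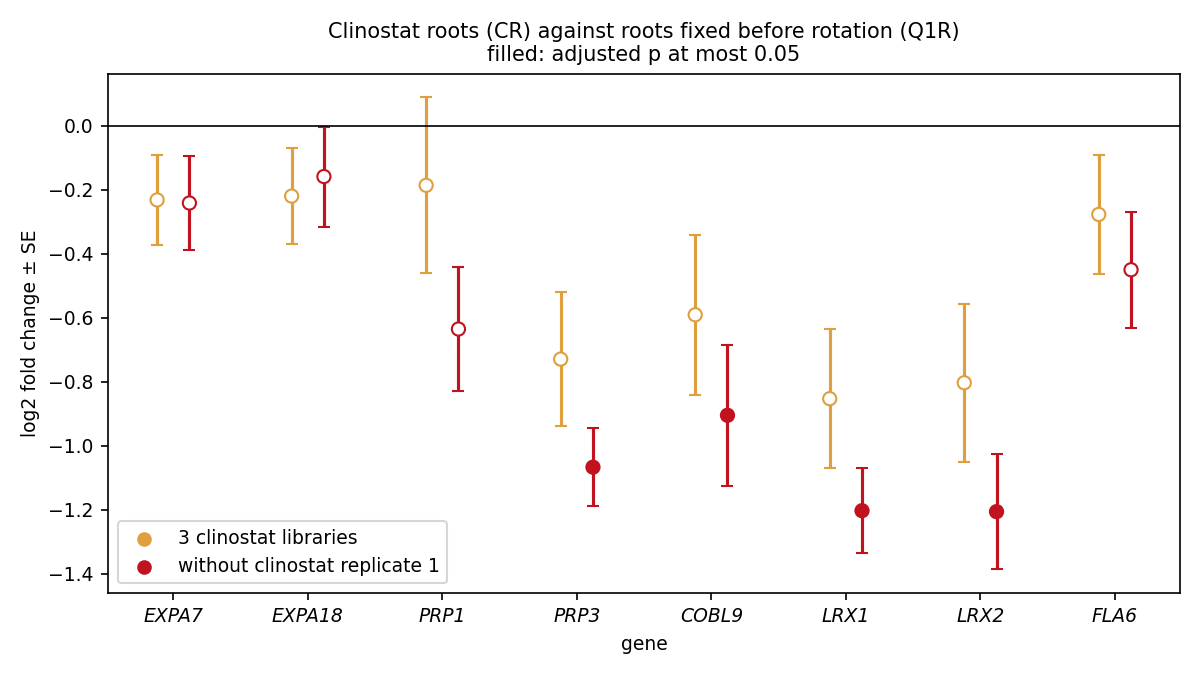
Log2 fold change ± SE (vertical axis) of each gene (horizontal axis) in clinostat roots over Q1R roots, with the 3 clinostat libraries (orange) and without clinostat replicate 1 (red); 3 Q1R libraries in both. Open points missed an adjusted p of at most 0.05: all 8 orange points are open, and the red points of PRP3 (-1.07), COBL9 (-0.90), LRX1 (-1.20) and LRX2 (-1.21) are filled.

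Other hair genes were lower in the clinostat roots in small number. Of all 21068 genes tested against Q1R in the main fit, 93 were lower and 244 higher. Against Q1R with the 3 clinostat libraries, 2 of 30 root hair growth genes were lower, the extensin-type gene AT5G06630 (52.7 CPM in CR and 109.4 CPM in Q1R, log2 fold change -1.02) and the peroxidase gene RHS19 (-0.65), and 1 of 8 transcription factors, RSL2 (-0.68). Of the 15 root genes with sites outside hairs, 3 were lower, CASP1 (-0.61), CASP2 (-0.76) and NRT2:1 (-1.76), and MRN1 was higher (0.60). Unrotated roots had calls in the same direction against the same Q1R libraries: CASP1 (-0.68) and CASP2 (-0.88) in Q3R, NRT2:1 in Q2R (-1.98) and Q4R (-2.35), MRN1 in Q2R (0.85) and RSL2 in Q3R (-0.68). The median log2 fold change was -0.43 over the members, -0.32 over the growth genes and -0.29 over the genes outside hairs, beside -0.006 over all genes. Against Q3R, 0 genes of these lists were called, and the medians were -0.43, -0.22 and 0.26. Against Q3R the genes outside hairs therefore had a median of the opposite sign to that of the members, a difference that was not tested. The 12 leaf markers summed to between 338.4 and 415.1 CPM in CR, 353.2 and 644.3 CPM in Q1R and 198.1 and 384.4 CPM in Q3R, with a median log2 fold change of 0.78 and 1 call against Q1R (RBCS1A, -0.74, adjusted p = 0.0494), and of 1.11 and 0 calls against Q3R. Their part in the result was not tested.

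Members varied together from one root library to the next. Over the 30 root libraries the 28 pairs had Pearson's r from 0.19 to 0.96 with a median of 0.62 (log2 of CPM + 1), given as a description since the points share plants, library preparation and depth. LRX1 with PRP3 (0.96) and PRP1 with FLA6 (0.93) were the closest pairs, and EXPA18 with COBL9 (0.19) the loosest. With the mean of each group removed the 28 values ran from 0.31 to 0.97 with a median of 0.78. Then LRX1 and PRP3 stayed closest (0.97), while PRP1 with FLA6 came to 0.76. Q1A replicate 2 was among the 5 highest root libraries for 7 members and Q1A replicate 1 among the 5 lowest for 8, both from 1 KFT.

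**Figure D4:**
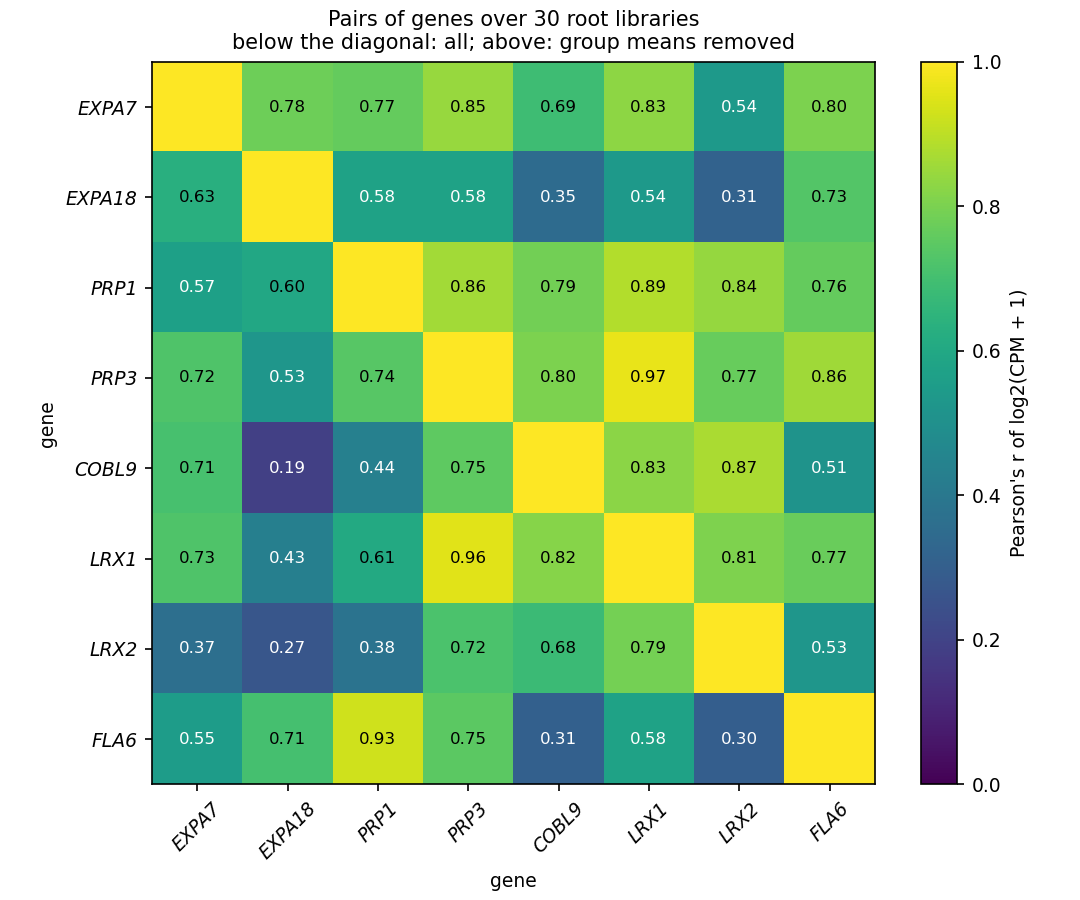
Pearson's r (color scale and printed values) of log2(CPM + 1) for each pair of genes (both axes) over 30 root libraries, below the diagonal as measured and above it with the group means removed. Values are positive throughout, from 0.19 for EXPA18 with COBL9 to 0.96 for LRX1 with PRP3 as measured.

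Of 19184 genes with a mean of at least 1 CPM in roots, the 10 most like the average member over the 30 root libraries were GH9C1 (r = 0.95), a root hair endoglucanase gene, EXT13 (0.95), MOP10 (0.93), the ERF factor gene RAP2.11 (0.93), the arabinogalactan protein gene AGP3 (0.93), RHS19 (0.93), EXT12 (0.90), EXT6 (0.89), the receptor-like kinase gene AT5G61350 (0.89) and PERK13 (0.89). Of these, 8 stood in the list of root hair growth genes. With group means removed GH9C1 again had the highest value (0.97). Of the 10 genes then most alike, only AGP3 (0.94), EXT13 (0.93), RHS19 (0.93) and PERK13 (0.93) stood in that list.

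In leaves the members had few reads, LRX2 the most. Roots and leaves of the 4 quiescent times were compared, with time in the model. By the study's methods, roots and leaves of a time were dissected from seedlings of 1 KFT. Root and leaf libraries are therefore not independent, which the model does not take into account. All 8 members were higher in roots, with log2 fold changes of 8.00 ± 0.55 for EXPA18, 7.80 ± 0.57 for PRP3, 7.80 ± 0.56 for LRX1, 7.76 ± 0.64 for PRP1, 7.27 ± 0.50 for FLA6, 6.89 ± 0.57 for EXPA7, 6.84 ± 0.35 for COBL9 and 3.84 ± 0.40 for LRX2 (SE, edgeR, 12 against 12 libraries, largest adjusted p = 7.33e-09). In this fit 72.4% of all genes were called and 37.9% were higher in roots, and the ranges of 27.3% lay wholly higher in roots, as for all 8 members. Of the relatives from the same families 20 were tested, and 8 were higher and 8 lower in roots: the proline-rich protein genes PRP2 (-6.73) and PRP4 (-3.33) and the expansin genes EXPA10 (-3.57) and EXPA1 (-2.52) were lower in roots.

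Over all 15 leaf libraries and the 15 root libraries of the same groups, the leaf level was 0.307% of the root level for EXPA18, 0.35% for LRX1, 0.36% for PRP3, 0.376% for PRP1, 0.477% for FLA6, 0.608% for COBL9 and 0.66% for EXPA7. LRX2 had 6.19%. LRX2 had 0.980, 0.236 and 0.734 CPM in CL, 6.25, 2.75 and 1.48 CPM in Q1L, 1.06, 2.22 and 0.161 CPM in Q2L, 0.899, 1.06 and 0.836 CPM in Q3L, and 0, 1.49 and 1.44 CPM in Q4L, so that it had reads in 14 of 15 leaf libraries. It was above the sum of the other 7 members in 5 leaf libraries, CL replicates 1 and 3, Q1L replicate 2 and Q3L replicates 1 and 2. Each of these 7 had reads in between 7 and 12 leaf libraries. EXPA7 had 0 reads in the 3 CL libraries, which allows up to 0.0625, 0.0643 and 0.0629 CPM (3 counts each, counting error only). Q4L replicate 1 had 0 reads for all 8, which allows up to 0.103 CPM for each.

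The reads of the other 7 members in leaves were concentrated in a few libraries. Q1L replicate 1 held 668 of 1913 such reads (34.9%), 233 of them from EXPA7. The 7 genes summed to 0.334, 0.321 and 0.377 CPM in CL, 13.4, 0.451 and 2.11 CPM in Q1L, 3.59, 2.44 and 1.33 CPM in Q2L, 0.592, 0.586 and 2.59 CPM in Q3L, and 0, 5.35 and 6.50 CPM in Q4L. Without Q1L replicate 1 the leaf level fell to 0.343% of the root level for EXPA7, 0.186% for PRP1 and 0.258% for FLA6, and LRX2 had 4.71%.

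Root genes with sites outside hairs were read in the same leaf libraries. Leaving out ESB1, which averaged 0.244 CPM in roots, 14 of them had a leaf level of 0.409% to 0.885% of the root level (median 0.69%), beside a median of 0.376% over the 7 members. The 15 genes summed to 31.7 CPM in Q1L replicate 1, where the 7 members had their highest sum, and to 2.52, 2.61 and 0.943 CPM in CL. Q4L replicates 2 and 3 came to 15.2 and 17.9 CPM and Q2L replicate 1 to 16.0 CPM. The 4 libraries with the highest sums of the 7 members, Q1L replicate 1, Q4L replicates 2 and 3 and Q2L replicate 1, also had the 4 highest sums of the other genes. In Q1L replicate 1 the 7 members reached 1.95% and the 15 genes 2.51% of their sums in Q1R. Whether reads from roots entered the leaf libraries was not tested.

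**Figure D5:**
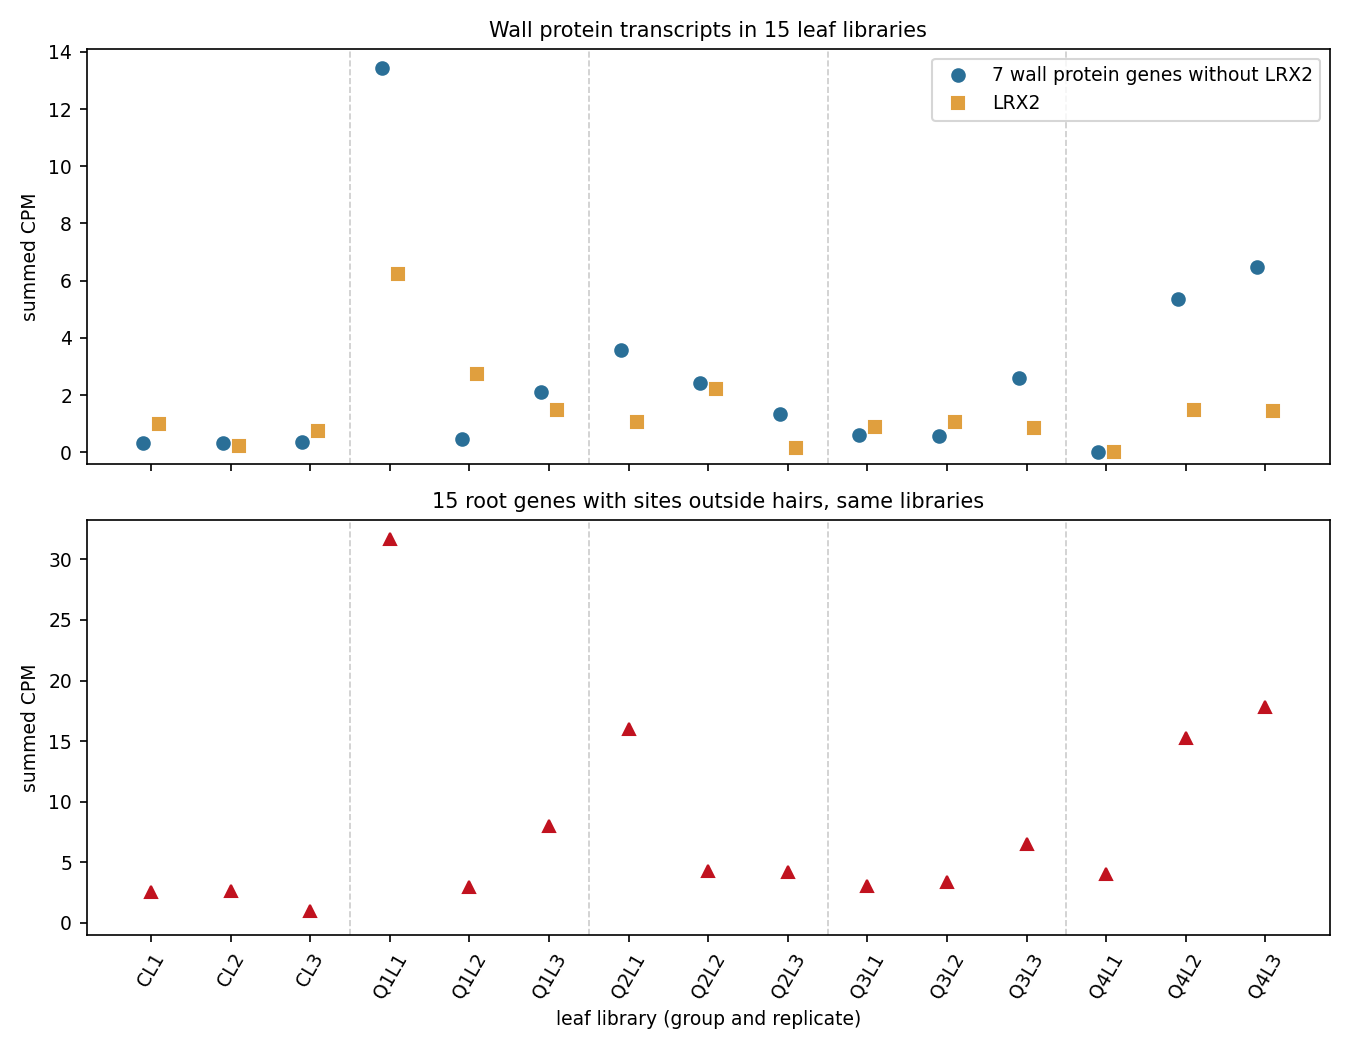
Summed CPM (vertical axes) in 15 leaf libraries (horizontal axis, group and replicate) of the 7 wall protein genes other than LRX2 (circles) and of LRX2 (squares), above, and of 15 root genes with sites outside hairs (triangles), below. Q1L replicate 1 is highest for all, at 13.4, 6.25 and 31.7 CPM, and LRX2 is above the other 7 in CL replicates 1 and 3.

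Between leaf groups the members gave no call. In Q2L, Q3L and Q4L against Q1L 6, 4 and 7 members passed the filter on low counts. At any time 0 were called, where 0%, 0.00979% and 0% of all genes were. An unadjusted p below 0.05 was seen for 0, 1 and 0 members. Among all genes it was seen for 1249 of 20465, 689 of 20437 and 738 of 20633. DESeq2 called 0 members. In clinostat leaves against Q3L, Q1L, Q1L with Q3L, and Q1L with Q2L and Q3L, 1, 3, 5 and 6 members passed the filter, and 0 were called, where 0%, 0.0682%, 0% and 0% of all genes were. An unadjusted p below 0.05 was seen for 0, 1, 3 and 2 members. Among all genes it was seen for 1460 of 20418, 1492 of 20526, 1426 of 21153 and 1118 of 21648. DESeq2 called 1 member, EXPA7 against Q1L with Q3L (0.756% of all genes). LRX2 had 0.650 ± 0.379 CPM in CL and 3.49 ± 2.47 CPM in Q1L (SD, n = 3 each), and its log2 fold change was -2.36 ± 0.79 (SE, edgeR, adjusted p = 0.536).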

How the data were processed

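Poly(A) RNA libraries of roots and leaves were made by the authors with a directional kit. Reads were trimmed with cutadapt, mapped with STAR 2.7.9a to TAIR10.51, freed of PCR duplicates and counted with HTSeq 0.11.2. The deposited values used here are counts per gene, not normalized. Whether counting used the strand is not stated. Fold changes and p-values of the authors' own DESeq2 runs, in the same 24 tables, were not used. Of 1001640 values present in more than 1 table, 0 differed. Gene names came from RefSeq TAIR10.1, which matched 28285 genes.

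CPM is the count over the library total, times 1000000. For each comparison a model of only the groups compared was made in edgeR 4.0.16 under R 4.3.3 (filterByExpr, TMM, quasi-likelihood test, Benjamini-Hochberg adjustment over all genes; called at an adjusted p of at most 0.05). The SE is the log2 fold change over the root of the F statistic. There were 27 comparisons. Alternatives were RLE normalization, no filter on low counts, DESeq2 1.42.0, the replicate number as a block, leaving out each library, and counts summed per vessel. The fits were also run on simulated counts, drawn with no difference between vessels, so that run says nothing about vessels. The members and gene lists were chosen with earlier results of these data known. Of the growth genes, 1 without counts and 1 whose RefSeq name is that of another gene were left out. Of each list, genes called in a described comparison are named (at most 8, by size of change). RSL4, RHD6, RSL2 and EXPA1 and PRP4 against the plate did not pass and were named after their values were seen, as was ESB1. The genes called most alike are the 10 with the highest r to the mean standardized log2(CPM + 1) of the members. Libraries of a group did not agree within sampling noise in any pair, so none was counted as a repeat. Depth sets the precision: 3 counts equal 0.0549 to 0.103 CPM in leaf libraries.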

Additional observations from a re-analysis of the deposited data

How the results depend on the processing

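Settings other than leaving out a library changed the number of members called as follows. DESeq2 called 2 in Q1A, 2 in Q1B and 3 in Q1C against the plate (PRP1, FLA6 and in Q1C PRP3), 3 in Q1D against the plate (the same with PRP3), 2 in Q1D against Q1B, 3 in clinostat roots against Q1R, 1 against Q1R with Q3R, 2 against Q1R, Q2R and Q3R, and 1 in clinostat leaves against Q1L with Q3L (EXPA7, -8.12, adjusted p = 0.00112, with 0 reads in all CL libraries, so its size is no estimate). Without the filter on low counts 3 were called in clinostat roots against Q1R (LRX1, LRX2 and PRP3), where 3.5% of all genes were. In the main fits these counts were 0, 1, 1, 2, 0, 0, 0, 0, 0 and 0. The cause was not tested. In DESeq2 the adjusted p of EXPA7 and EXPA18 between roots and leaves was not given, and 6 of the 8 were called.

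Leaving out 1 library, the number of members called ranged from 0 to 1 for Q1A, from 0 to 1 for Q1B and from 0 to 2 for Q1D against the plate. It ranged from 0 to 2 for clinostat roots against Q3R, from 0 to 4 against Q1R, from 0 to 3 against Q1R with Q3R and from 0 to 4 against Q1R, Q2R and Q3R, each highest number arising without CR replicate 1. For Q1R against the KFT set it ranged from 0 to 1. COBL9 and LRX2 changed sign in the KFT roots against the plate, from -0.27 to 0.10 and from -0.21 to 0.28. All other counts kept their value, and PRP1 and FLA6 were called in each of the 15 fits of the 4 KFTs together.

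The labels do not say whether equal replicate numbers mark related libraries. Same-numbered root libraries of the time course correlated at 0.019 on average in their deviations, against -0.009 for other numbers. The means were -0.005 against 0.004 in leaves and 0.035 against -0.017 in the KFT set. Between roots and leaves of a time they were 0.047 against -0.024. In the KFT set 10 of 30 same-numbered pairs exceeded 0.1. Means this near 0 cannot show whether such libraries are related. With the replicate block 3 members were called in clinostat roots against Q1R (LRX1 -0.91, LRX2 -0.89 and PRP3 -0.78), where 2.68% of all genes were, against 0 without it, and no other count changed. The levels in leaves without Q1L replicate 1 were examined after seeing the data. In leaves, depth limits a member to what 3 counts allow.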
